A study of Rattus norvegicus with 12 samples.

Results

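The genes described here are members of the Hippo pathway and targets of its effector YAP in rat liver after partial hepatectomy (PH). The 10 genes were chosen by symbol: the coactivator YAP1, the kinases LATS1 and LATS2, the transcription factor TEAD1, the 14-3-3 proteins YWHAB and YWHAE, and the target genes CTGF, CYR61, AMOTL2 and ANKRD1. Of these 10 genes, 8 were found by name among the 14692 genes of the RPKM table. LATS1 and TEAD1 were not analysed here. RPKM is the number of reads on a gene scaled by transcript length and by the size of the library, so that levels can be set side by side between genes.

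The study asked whether the flux of bile acids (BA) through the liver is needed for regeneration after PH. Male Sprague Dawley rats of 4 to 5 months received a biliary fistula (BF), which drains bile to the outside, or a sham fistula (Control) 24 h before PH. All rats, Control included, carried a duodenal catheter with continuous saline. In a further group the fistula was combined with duodenal sodium taurocholate at 0.5 mg per g per day, begun 12 h before PH. Whole liver was collected 0, 4, 12 and 24 h after PH and its RNA was sequenced. The titles of the samples name 3 series of columns, Control, BF and BA, with 1 column at each time, 12 columns in all. The sample descriptions give BF and BA crosswise to the titles, so that a column titled BF is described there as infused and a column titled BA as not infused. The study's own use of the names follows the titles, and the columns are called BF and BA here as they are titled. CYP7A1, the rate-limiting enzyme of bile acid synthesis, which bile acids returning to the liver are known to repress, was at 387, 13.8, 136 and 334 RPKM in BF at 0, 4, 12 and 24 h. It was at 54.9, 1.81, 3.17 and 68.8 RPKM in BA and at 60, 4.59, 8.53 and 57.3 RPKM in Control. BF stood highest at each time, and BA was below Control at 0, 4 and 12 h. By qPCR of liver RNA the study reported this gene raised before PH in rats with a fistula, and reversed by the infusion. The columns as titled had that order at 0 h. The study also set its qPCR of this gene beside the same sequencing data. The sequencing values alone are therefore no independent check of the titles. The conflict in the labels remains, and every statement below on BF or BA is a statement on columns with that title. A column holds the average that the authors formed from 2 runs, of which 1 read the RNA of 1 rat and the other a pool of 3 rats. No spread between the 4 rats can be given, and the number of reads behind a value is unknown.

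The columns differed in their make-up. The hepatocyte gene ALB, which encodes albumin, took 30.9% of all RPKM in the BA column at 4 h and no more than 13.4% in any other column. The median gene of that BA column was at 8.68 RPKM, the lowest of the 12 columns. The 6 pancreatic acinar markers summed to 126 RPKM in the BF column at 12 h and to between 5.09 and 23.0 RPKM elsewhere. CELA1 was at 6.03 RPKM in that column and at 3.16 to 22.53 RPKM elsewhere. CTRB1, PRSS1, CPB1, PNLIP and CPA1 were each highest in that column, with CTRB1 at 84.71 RPKM and at no more than 0.57 RPKM elsewhere. Hepatocyte markers were abundant in every column, with sums of 70812 RPKM or more for the 4 found. In whole liver, fewer cells of a type and less RNA per cell cannot be told apart.

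The Hippo pathway restrains organ growth. Upstream kinases and their scaffolds activate LATS kinases, which phosphorylate YAP, and phosphorylated YAP is held in the cytoplasm by 14-3-3 proteins. YAP that reaches the nucleus binds TEAD transcription factors and raises transcription of target genes such as CTGF and CYR61, which encode secreted matricellular proteins. AMOTL2, an angiomotin that retains YAP outside the nucleus, and ANKRD1, an ankyrin repeat protein, are further targets. In liver, loss of Hippo kinases or forced YAP activity enlarges the organ. RNA levels do not show the phosphorylation or location of YAP.

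Promoters are shown first because TEAD factors bind the core GGAATG, read on either strand (CATTCC on the other). RefSeq windows of 300 bases on build GRCr8, from 250 bases before to 50 after the annotated start, were matched by symbol for 7 of the 10 genes. The windows are printed 5′ to 3′ on the strand of the gene, with each TEAD core in capitals. The 3 target genes matched all held at least 1 core, and YAP1 is shown as the member of the pathway that held one.
CTGF promoter, chr1:22624565-22624864, minus strand: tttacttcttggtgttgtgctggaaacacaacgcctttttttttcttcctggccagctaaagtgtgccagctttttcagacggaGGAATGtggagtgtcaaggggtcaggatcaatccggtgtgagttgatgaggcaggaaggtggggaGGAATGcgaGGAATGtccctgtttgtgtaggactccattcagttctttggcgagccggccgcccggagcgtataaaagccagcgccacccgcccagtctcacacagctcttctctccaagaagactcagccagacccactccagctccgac
CYR61 promoter, chr2:237225640-237225939, minus strand: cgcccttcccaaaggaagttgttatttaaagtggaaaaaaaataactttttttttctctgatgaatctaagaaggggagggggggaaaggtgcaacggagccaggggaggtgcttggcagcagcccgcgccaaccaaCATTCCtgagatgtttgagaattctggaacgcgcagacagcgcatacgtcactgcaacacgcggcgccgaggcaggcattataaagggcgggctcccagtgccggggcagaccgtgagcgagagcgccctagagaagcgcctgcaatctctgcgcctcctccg
AMOTL2 promoter, chr8:112182376-112182675, plus strand: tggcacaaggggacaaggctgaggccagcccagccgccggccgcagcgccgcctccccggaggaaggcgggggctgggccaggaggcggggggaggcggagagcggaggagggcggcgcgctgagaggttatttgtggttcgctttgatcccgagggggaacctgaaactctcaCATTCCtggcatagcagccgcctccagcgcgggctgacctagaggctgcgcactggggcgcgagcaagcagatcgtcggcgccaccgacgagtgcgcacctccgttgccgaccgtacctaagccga
YAP1 promoter, chr8:13451388-13451687, minus strand: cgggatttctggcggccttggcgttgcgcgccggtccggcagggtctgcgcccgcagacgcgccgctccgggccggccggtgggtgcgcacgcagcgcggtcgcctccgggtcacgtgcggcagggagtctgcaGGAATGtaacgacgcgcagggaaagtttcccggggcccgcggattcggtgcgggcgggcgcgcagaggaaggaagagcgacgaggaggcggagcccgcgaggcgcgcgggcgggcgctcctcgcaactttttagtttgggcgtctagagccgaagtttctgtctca
The CTGF window held 3 cores, which begin at positions -166, -101 and -92 from the start and all lie on the strand of the gene. CYR61 and AMOTL2 held 1 core each, on the opposite strand, at -113 and -76. The core of YAP1 began at -116. The windows of LATS1, YWHAB and YWHAE held no core. Of 33469 promoter windows of the same length, 14.2% held at least 1 core, 1.24% at least 2 and 0.0956%, or 32 windows, at least 3. The AP-1 site TGACTCA, read on both strands, was found in 4.63% of all windows and in none of the 7. The CArG box, the site of serum response factor, was found in 1.64% of all windows and in none of the 7. A match of letters is a description and no evidence of binding, and no match says only that these letters are not in this window.

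**Figure D1:**
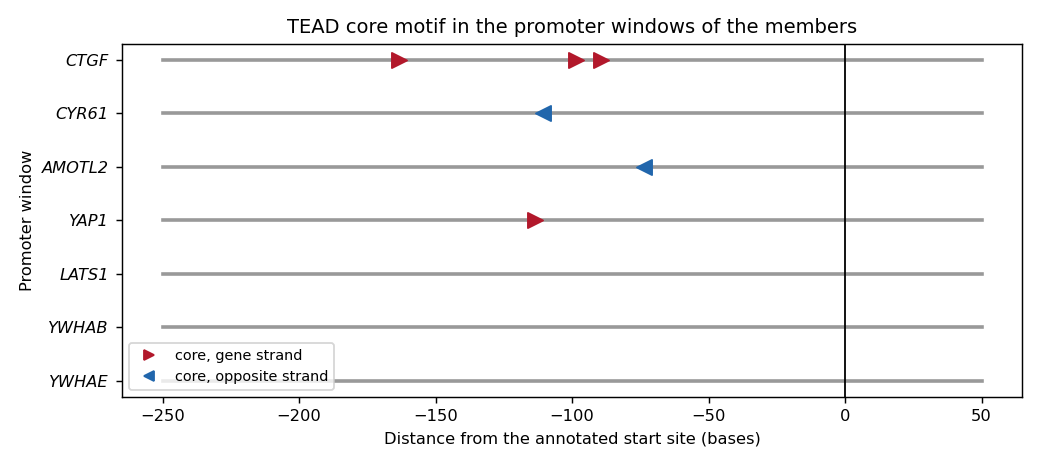
TEAD core motifs in the promoter windows of 7 genes. Each grey line is a window from 250 bases before to 50 bases after the annotated start (vertical line), the x axis gives the distance from the start in bases, and arrowheads mark cores on the strand of the gene (red) or the opposite strand (blue). CTGF holds 3 cores, CYR61, AMOTL2 and YAP1 hold 1 each, and the other 3 windows hold none.

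Among the target genes, CTGF had the sharpest course. In Control its level was 1.91 RPKM at 0 h, 22.85 RPKM at 4 h, 2.65 RPKM at 12 h and 4.70 RPKM at 24 h. In BA it was 2.41, 18.37, 3.08 and 2.98 RPKM at the same times. In BF it was 2.36, 7.62, 3.03 and 4.14 RPKM. All 3 treatments peaked at 4 h, the BF peak was the lowest of them, and the treatments lay between 1.91 and 2.41 RPKM at 0 h and between 2.65 and 3.08 RPKM at 12 h. The 4 h level was 12.0-fold the 0 h level in Control, 7.62-fold in BA and 3.23-fold in BF. At 4 h the BF column was 0.333-fold the Control column and 0.415-fold the BA column. These folds compare 1 averaged column with another and have no replicate check.

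AMOTL2 followed a broader course. Its levels in Control were 9.05, 25.49, 16.33 and 9.75 RPKM at 0, 4, 12 and 24 h. The BA columns held 9.80, 26.74, 15.64 and 9.19 RPKM. The BF columns held 7.67, 9.67, 10.21 and 8.30 RPKM. Control and BA rose at 4 h, were still above their 0 h level at 12 h and were back near it at 24 h, whereas BF stayed between 7.67 and 10.21 RPKM throughout. The 4 h level was 2.82-fold the 0 h level in Control, 2.73-fold in BA and 1.26-fold in BF. At 4 h, AMOTL2 in Control was 2.64-fold and in BA 2.77-fold its level in BF. BF was the lowest of the 3 treatments at each of the 4 times, also with columns rescaled to a common median gene.

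CYR61 did not follow CTGF. In Control it was at 6.12, 9.72, 2.77 and 12.22 RPKM at 0, 4, 12 and 24 h. In BA it was at 9.09, 2.82, 4.19 and 4.91 RPKM. In BF it was at 1.87, 12.07, 8.70 and 6.18 RPKM. The 3 treatments differed already at 0 h, where BF was lowest and BA highest, and they went different ways at 4 h. The 4 h level was 6.45-fold the 0 h level in BF and 1.59-fold in Control, whereas in BA the 0 h level was 3.22-fold the 4 h level. At 4 h the BF column was 4.28-fold the BA column, the reverse of the order seen for CTGF and AMOTL2. At 12 h the BF column was 3.14-fold the Control column. The low BF value at 0 h enters each ratio to 0 h in BF.

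ANKRD1 was low in every column. Its levels in Control were 0.40, 1.16, 0.70 and 0.84 RPKM, in BA 0.83, 0.50, 0.69 and 0.62 RPKM, and in BF 0.47, 1.13, 0.85 and 1.46 RPKM at 0, 4, 12 and 24 h. No column passed 1.46 RPKM and its mean was under 1 RPKM, so that it did not enter the tests or the counts of calls. It enters the medians of the 4 target genes below, which are therefore also given without it. ANKRD1 is known as an abundant gene of muscle. Of the 6 skeletal muscle markers, CKM was at 0 in 8 columns and MB in 10, and the 6 together summed to between 0.79 and 3.33 RPKM. TNNC2 was at 0.23 to 2.26 RPKM and MYLPF at 0.30 to 0.92 RPKM, above 0 in every column. The part of muscle in the ANKRD1 values was not tested.

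Of the pathway genes, YAP1 changed little over time. Control held 20.20, 19.55, 17.69 and 26.06 RPKM at 0, 4, 12 and 24 h. BA held 20.32, 19.45, 18.32 and 26.47 RPKM. BF held 17.98, 16.99, 15.31 and 20.14 RPKM. As deposited, Control and BA had nearly equal levels at every time and BF was below both. All 3 treatments were lowest at 12 h and highest at 24 h on that scale. The highest column was 1.73-fold the lowest. With rescaled columns BF was lowest at 4, 12 and 24 h and not at 0 h. The course over time was not kept on that scale, where Control and BA were highest at 4 h and BF at 0 h. The fitted difference at 24 h against 0 h was then -0.03.

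LATS2, the kinase that phosphorylates YAP, was the least abundant of the pathway genes. It was at 7.13, 7.34, 4.89 and 6.79 RPKM in Control, at 7.19, 6.42, 5.36 and 6.80 RPKM in BA, and at 6.51, 6.82, 4.59 and 4.45 RPKM in BF. All 3 treatments were lower at 12 h than at 0 h. At 24 h Control and BA were near their 0 h level again as deposited, whereas BF was at its lowest. With rescaled columns Control and BA were also below their 0 h level at 24 h. The fitted difference at 24 h against 0 h was then -0.48 (limma adjusted p = 0.0144).

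The 14-3-3 proteins were the most abundant. YWHAB was at 49.67, 49.50, 54.43 and 71.34 RPKM in Control, at 46.81, 34.31, 55.81 and 60.83 RPKM in BA, and at 43.43, 43.19, 48.10 and 43.95 RPKM in BF. Its lowest value as deposited was the BA column at 4 h, the column in which ALB took 30.9% of all RPKM. With rescaled columns the lowest was the BF column at 24 h. The part of ALB in the BA value was not tested beyond the rescaling. YWHAE was at 157.60, 168.60, 212.51 and 260.46 RPKM in Control, at 142.77, 171.15, 183.60 and 269.55 RPKM in BA, and at 138.05, 158.49, 156.70 and 195.53 RPKM in BF. YWHAE rose in steps in Control and BA, and its 24 h level was 1.65-fold the 0 h level in Control, 1.89-fold in BA and 1.42-fold in BF.

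**Figure D2:**
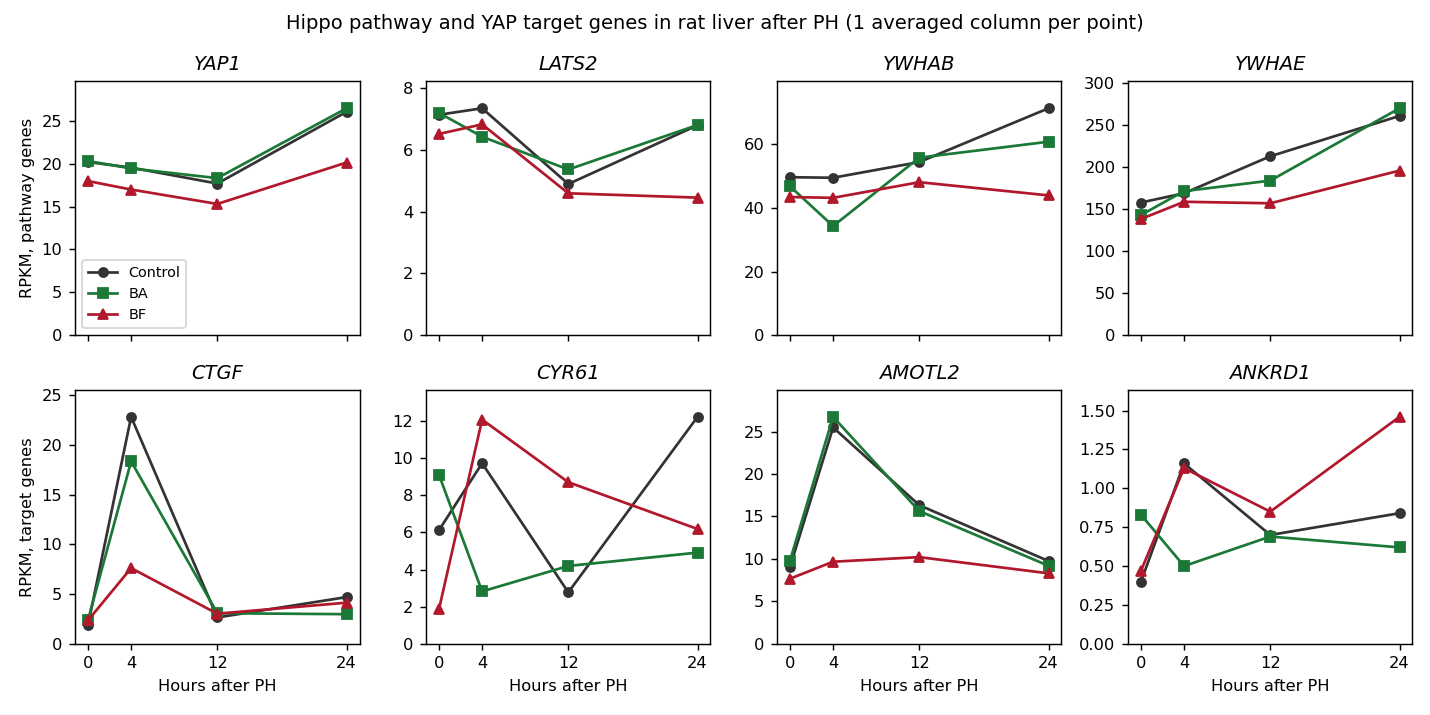
RPKM (y axis, from 0) of the 8 genes found against hours after PH (x axis) in the Control, BA and BF columns, 4 pathway genes above and 4 target genes below. Each point is 1 averaged column without an error. CTGF and AMOTL2 peak at 4 h in Control and BA (22.85 and 18.37 RPKM for CTGF) and lie lower in BF (7.62 RPKM), CYR61 has no common course, and the pathway genes change by at most 2.08-fold between any 2 columns.

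Pathway and target genes were then set side by side as log2 ratios of RPKM + 1 to the 0 h column of the same treatment. The added 1 RPKM understates changes of low genes such as CTGF. At 4 h the median of the 4 pathway genes was 0.02 in Control, -0.10 in BA and 0.03 in BF, and that of the 4 target genes 1.01, 0.54 and 0.95. Without ANKRD1 the target medians at 4 h were 1.40, 1.36 and 1.36. The medians of all 8459 genes tested were -0.19, -0.32 and -0.07. The target median thus lay above the pathway median in every treatment at 4 h, but the genes behind it differed, CTGF and AMOTL2 in Control and BA and CYR61 and CTGF in BF. With AMOTL2 counted in the pathway and LATS2 among the targets, the target median at 4 h in BA was -0.21 and lay under that of the pathway, 0.10. At 12 h the pathway medians were -0.03, 0.05 and -0.04 and the target medians 0.30, 0.07 and 0.35 in Control, BA and BF, against -0.16, -0.13 and -0.05 for all genes, and without ANKRD1 the target medians were 0.33, 0.26 and 0.37. At 24 h the pathway medians were 0.43, 0.37 and 0.09 and the target medians 0.64, -0.13 and 0.68, against 0.21, 0.15 and 0.28 for all genes, and without ANKRD1 the target medians were 0.89, -0.08 and 0.61. At 24 h, 1 of 4 target genes was above its 0 h level in BA and 4 of 4 were in Control and in BF. The smallest rise in Control and in BF was that of AMOTL2, 0.10 in each, under the median of all genes. The count includes ANKRD1, and the share of all genes above their 0 h level is not given here. With rescaled columns the 24 h target medians without ANKRD1 were 0.57, -0.31 and 0.30 in Control, BA and BF. The comparisons within a treatment share its 0 h column.

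A ratio past 2-fold was counted as a call where 1 column was set against 1 column, with no test. Of the 7 members with a mean of at least 1 RPKM, 2 were called at 4 h in Control (9.2% of all genes tested), 3 in BA (17.8% of all genes) and 2 in BF (12% of all genes). At 12 h none was called in Control or BA and 1 in BF, where the shares of all genes were 13.9%, 7.06% and 7.61%. At 24 h none was called in Control or BA and 1 in BF, against 11.3%, 5.24% and 11.1% of all genes. The calls at 12 and 24 h were CYR61 alone, and its log2 ratio of 1.32 at 24 h in BF was 0.995 with rescaled columns and so no call. With 0.1 RPKM added, CYR61 was past 2-fold lower at 12 h in Control and in BA, and CTGF past 2-fold higher at 24 h in Control.

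**Figure D3:**
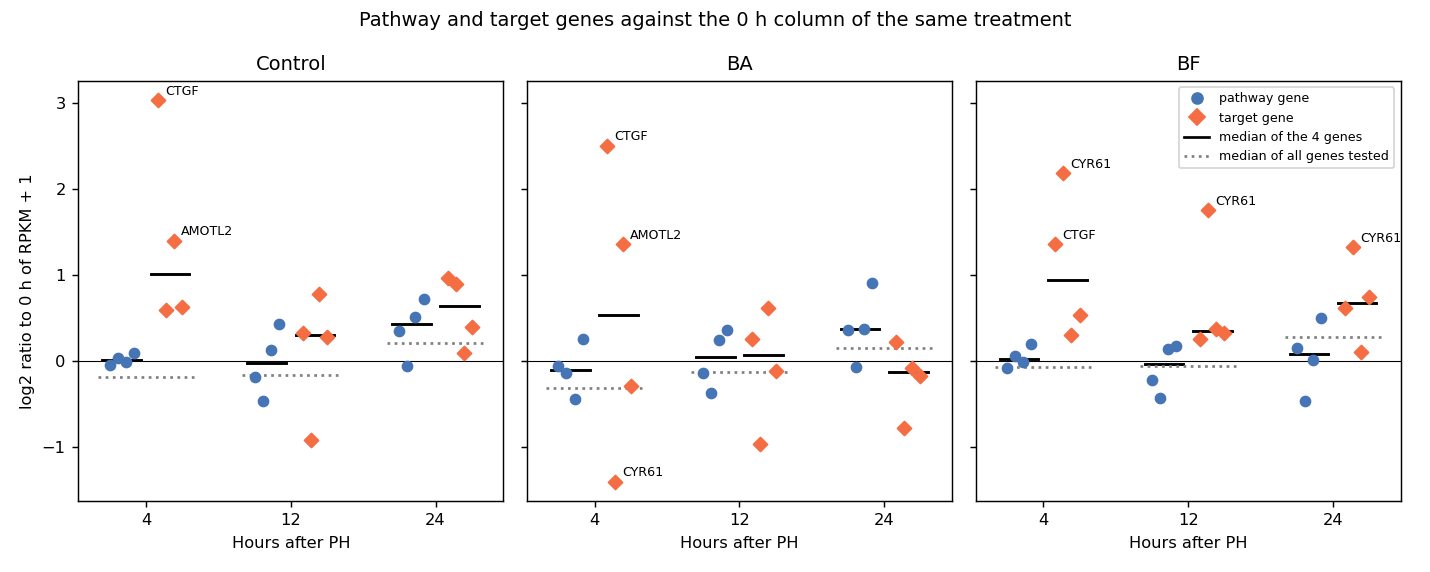
Log2 ratios of RPKM + 1 to the 0 h column of the same treatment (y axis) at 4, 12 and 24 h (x axis) in Control, BA and BF, for 4 pathway genes (blue circles) and 4 target genes (orange diamonds). Black bars are medians of 4 genes, dotted lines medians of all genes tested, and genes past 2-fold are named. CTGF and AMOTL2 stand highest at 4 h in Control and BA, and CYR61 stands highest at each time in BF and lowest at each time in BA.

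Treatments were next compared at each time. Before PH, CYR61 was past 2-fold lower in BF than in Control, at -1.31, and lower in BF than in BA, and no member was in BA against Control. The shares of all genes past 2-fold at 0 h were 3.89%, 1.82% and 4.02% in the same order. At 4 h, CTGF and AMOTL2 were past 2-fold lower in BF against Control, 2 of 7 members against 4.35% of all genes, with log2 ratios of -1.47 and -1.31. In BF against BA these 2 genes were lower, at -1.17 and -1.38, and CYR61 was higher, at 1.77, which makes 3 of 7 members against 4.72% of all genes. In BA against Control at 4 h CYR61 was the 1 member called, at -1.49, with 7.28% of all genes past 2-fold. Of all genes tested, 1.23% had a lower log2 ratio than CTGF and 1.67% a lower one than AMOTL2 in BF against Control at 4 h. The BF and BA comparisons share the Control columns, and no spread between rats stands behind any of these ratios.

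At 12 h the log2 ratio of CTGF between BF and Control was 0.14. CYR61 was then the 1 member past 2-fold, higher in BF against Control at 1.36, and none was in BA against Control or in BF against BA, where the shares of all genes were 3.52%, 1.71% and 1.92%. With 0.1 RPKM added CYR61 was also past 2-fold higher in BF against BA at 12 h. At 24 h no member was past 2-fold in BF against Control or in BF against BA and CYR61 was in BA against Control, at -1.16 as deposited and -0.96 with rescaled columns, with shares of 2.08%, 1.86% and 2.05%. The pathway genes differed by less than 2-fold at every time and in every pair of treatments. All 4 were lower in BF than in Control at each time, with medians of -0.14, -0.19 and -0.46 at 4, 12 and 24 h against all-gene medians of -0.07, -0.07 and -0.11. With rescaled columns the differences at 12 and 24 h kept their direction in all 4 genes. On that scale YWHAE at 4 h turned to 0.01, and at 0 h all 4 turned above 0, by at most 0.07. These pathway genes belong to the Hippo set that the study reported as less active in BF, on these same libraries. AMOTL2 is in that set too. The shared direction of these genes is therefore not independent evidence. The share of all genes lower in BF than in Control at each time is not given here. The log2 ratios of the 3 target genes tested in BF against Control at 24 h were -0.15 for CTGF, -0.88 for CYR61 and -0.21 for AMOTL2. YAP1, YWHAE and AMOTL2 were lowest in BF at all 4 times, as were 3.46% of all genes, and with rescaled columns AMOTL2 alone of the members was, as were 2.39% of all genes.

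For tests, limma was fitted to log2(RPKM + 1) of the 12 columns with treatment and time as additive factors, and a gene was called at an adjusted p under 0.05. With 1 averaged column for each treatment and time, such a call says that a difference is large beside the departures from additivity between columns, not beside the spread between rats. At 4 h against 0 h, 2 of the 7 members tested were called, and 45.3% of all genes were. CTGF was 2.30 higher on the log2 scale (SE 0.30, 95% interval 1.62 to 2.98, limma adjusted p = 0.000696), higher in 3 of 3 treatments. AMOTL2 was 1.02 higher (SE 0.22, interval 0.53 to 1.51, limma adjusted p = 0.00547), likewise in 3 of 3. Both calls held without any 1 column and under each of the other settings tried. CYR61 had an estimate of 0.46 with an interval from -0.89 to 1.80, wide because its courses differed between treatments. Both calls were upward, 12.9% of all genes were called higher and 32.4% lower, and the median of all genes at 4 h was -0.20.

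At 12 h against 0 h, 1 of 7 members was called and 31.5% of all genes were. LATS2 fell by 0.42 (SE 0.12, interval -0.69 to -0.14, limma adjusted p = 0.0291), lower in 3 of 3 treatments, beside a median of all genes of -0.12. The call was lost with rescaled columns, at -0.30 and a limma adjusted p = 0.0671, and without any 1 of the 6 columns at 0 h and 12 h. YWHAE, at 0.32 and limma adjusted p = 0.0577, and AMOTL2, at 0.59 and limma adjusted p = 0.0662, lay just outside the threshold and were called with rescaled columns. AMOTL2 was also called at 12 h without the BF column at 4 h, at limma adjusted p = 0.00687.

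At 24 h against 0 h, 2 of 7 members were called, both upward, and 36.1% of all genes were, with 30.6% of all genes called higher and 5.54% lower. YWHAE was 0.71 higher (SE 0.11, interval 0.45 to 0.97, limma adjusted p = 0.00229) and YAP1 0.29 higher (SE 0.09, interval 0.10 to 0.48, limma adjusted p = 0.0270), each in 3 of 3 treatments. The median of all genes was 0.21 higher at 24 h, and with rescaled columns YWHAE was at 0.38 (limma adjusted p = 0.0599) and YAP1 at -0.03. With rescaled columns neither was called, and LATS2 was the 1 member called, lower at -0.48 (limma adjusted p = 0.0144). On that scale 874 of 8459 genes were called higher and 1448 lower. The YAP1 call was also lost without 5 of the 6 columns at 0 h and 24 h, each left out in turn, that is all but BF at 24 h. CTGF, at 0.60 and limma adjusted p = 0.145, was called without the BF column at 4 h, at limma adjusted p = 0.0163.

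Over all times, none of the 7 members was called between treatments. In BF against Control 0.804% of all genes were called, in BA against Control 0.0709% and in BF against BA 0.0118%. At an unadjusted p under 0.05 in limma, 4 members passed in BF against Control (YAP1, YWHAB, YWHAE and AMOTL2, all lower in BF), 2 in BF against BA (YAP1 and AMOTL2, both lower in BF) and 0 in BA against Control. Of all genes, 21.9%, 7.81% and 22.7% passed at that threshold in the same order. The members that passed all belong to the Hippo set named above, and their direction is not independent evidence. AMOTL2 had a difference of -0.59 (interval -1.02 to -0.16, limma adjusted p = 0.139) in BF against Control and of -0.60 (limma adjusted p = 0.491) in BF against BA. YAP1 was at -0.23 (interval -0.39 to -0.06, limma adjusted p = 0.145) and at -0.24 (limma adjusted p = 0.488). An additive fit averages over the times, and the CTGF difference at 4 h gave an estimate of -0.32 with an interval from -0.91 to 0.27 in BF against Control.

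**Figure D4:**
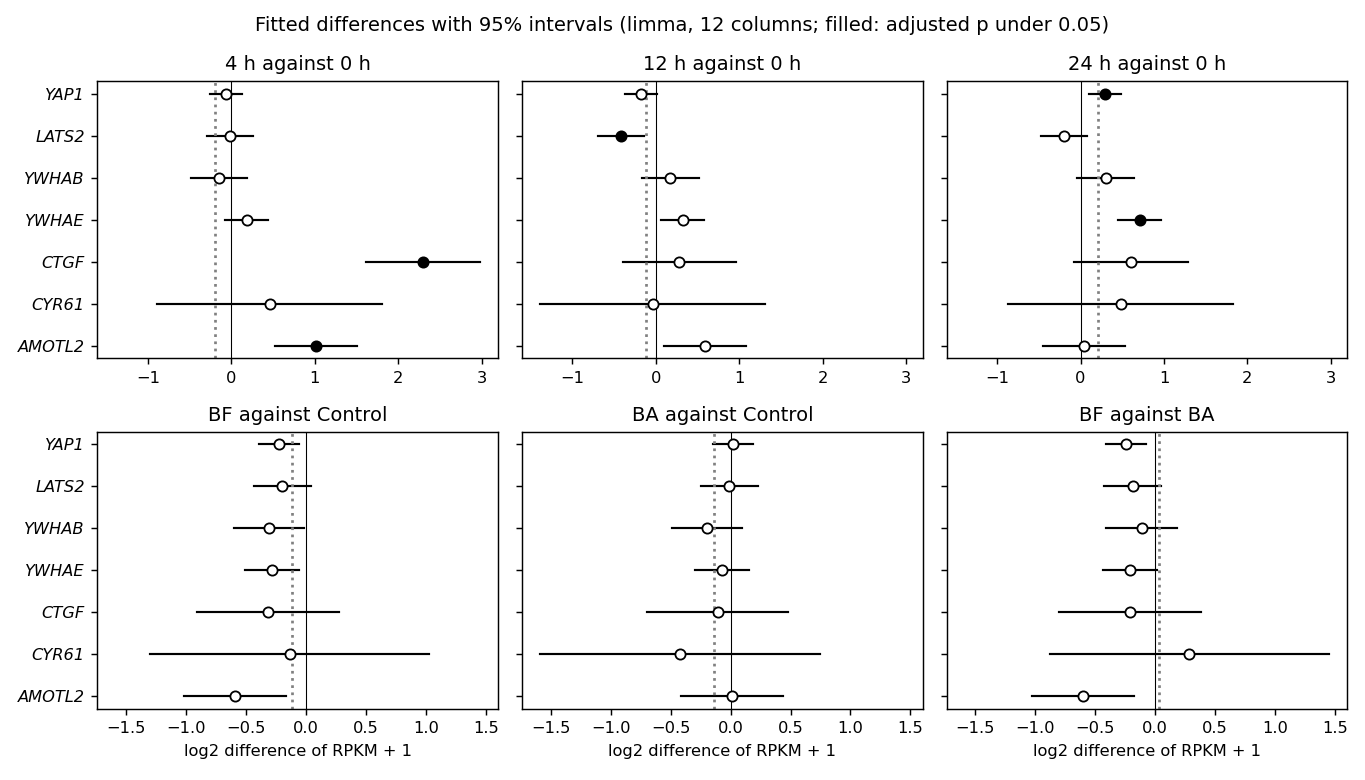
Fitted log2 differences of RPKM + 1 (x axis) with 95% intervals for the 7 members tested, in 3 comparisons of times (above) and 3 of treatments (below). Filled points have an adjusted p under 0.05 in limma and dotted lines are the medians of all genes. CTGF (2.30) and AMOTL2 (1.02) at 4 h lie farthest to the right, and no point in the lower row is filled.

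The other genes of the pathway were read from lists by role. The 10 tested of the 14 further Hippo genes in the study's own set include core kinases (STK3, STK4), scaffolds (SAV1, the MOB1 proteins) and the junction protein TJP1. At 4 h 1 was called higher and 3 lower, at 12 h 0 higher and 2 lower, and at 24 h 4 higher and 1 lower. Of all genes, 12.9% were higher and 32.4% lower at 4 h, 9.03% and 22.5% at 12 h, and 30.6% and 5.54% at 24 h. The medians of the list were -0.02, -0.11 and 0.20, and those of all genes -0.20, -0.12 and 0.21. With rescaled columns the 24 h counts were 0 higher and 1 lower and the median was -0.09. On that scale 874 of all 8459 genes were higher and 1448 lower at 24 h. The study put this set forward on these same libraries, and the counts are not independent evidence of a direction.

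Of 16 further regulators and TEAD partners, 10 were tested. At 4 h 2 were higher and 3 lower, at 12 h 0 and 3, and at 24 h 5 and 0, with medians of -0.05, -0.11 and 0.27. The shares of all genes are those just given for columns as deposited. The kinase TAOK3, which acts upstream in the pathway, had the largest difference at 4 h, -1.59, from 13.15 to 4.35 RPKM in Control, 11.54 to 1.65 RPKM in BA and 14.63 to 6.16 RPKM in BF. RASSF1, a scaffold of the kinases, was 1.11 higher at 4 h and rose from 8.85 to 17.41 RPKM in Control. VGLL4, which competes with YAP for TEAD, was at -0.77 at 4 h and -0.82 at 12 h, and its call was lost at both times with rescaled columns. MAP4K4, a kinase acting beside the core kinases, was 1.43 higher at 24 h and stood at 9.53 RPKM in Control, 7.30 RPKM in BA and 7.95 RPKM in BF, from 2.26 to 2.63 RPKM at 0 h. AJUBA, listed as JUB, which binds LATS kinases, was at 24 h 2.71-fold its 0 h level in Control, 1.05-fold in BA and 1.77-fold in BF, and its call at 24 h (limma adjusted p = 0.0312) was lost with rescaled columns (limma adjusted p = 0.161). With rescaled columns 1 was higher and 1 lower at 24 h, and the median was -0.04, beside 874 higher and 1448 lower of all 8459 genes.

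All 4 of the other 14-3-3 genes tested had 24 h estimates above 0, with a median of 0.81, and 3 were called. Of all genes, 30.6% were called higher at 24 h, and their median was 0.21. YWHAH rose by 1.46, from 30.15 to 103.76 RPKM in Control, from 33.97 to 60.60 RPKM in BA and from 20.70 to 75.55 RPKM in BF. YWHAQ rose by 0.94 and YWHAZ by 0.69. Within BF, YWHAZ was 2.04-fold and YWHAQ 2.44-fold the 0 h level at 24 h, whereas YWHAB in BF was 1.01-fold its own. With rescaled columns the median was 0.48 and 2 of the 3 calls remained, YWHAH and YWHAQ. On that scale 874 of 8459 genes were called higher.

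Other YAP targets, taken from a list of genes known to follow YAP in cultured cells, differed among themselves. Of 17 listed, 13 were found and 9 tested. At 4 h none of the 9 was called higher and 5 were called lower, with a median of -0.49 against -0.20 for all genes, of which 12.9% were called higher and 32.4% lower. At 12 h 1 was higher and 5 lower, and at 24 h 0 and 2, with medians of -0.52 and -0.12. Of all genes, 9.03% were higher and 22.5% lower at 12 h, and 30.6% and 5.54% at 24 h. Their medians were -0.12 and 0.21. GADD45A, a stress-induced growth arrest gene, named here after its values were seen, had the highest estimate of the list at 4 h, 0.66 (limma adjusted p = 0.0574), and was called with rescaled columns, at 0.79 (limma adjusted p = 0.0356). At 0 and 4 h it stood at 33.79 and 78.12 RPKM in Control, at 23.48 and 36.66 RPKM in BA, and at 29.16 and 32.98 RPKM in BF. NUAK2, a kinase, fell by 0.93 at 4 h, from 8.29 to 3.61 RPKM in Control. IGFBP3, a binding protein of insulin-like growth factors, fell by 1.00 at 12 h and by 1.29 at 24 h, where it was at 12.35 RPKM in Control, 9.20 RPKM in BA and 8.36 RPKM in BF after 21.10 to 32.13 RPKM at 0 h. CCDC80, a matrix protein, was at -0.78 at 12 h, and the ectonucleotidase NT5E at -0.96. The NT5E call (limma adjusted p = 0.0273) was lost with rescaled columns (limma adjusted p = 0.0548), and that of CCDC80 was kept. With rescaled columns 1 was higher and 5 lower at 4 h, 1 and 4 at 12 h, and 0 and 4 at 24 h. On that scale 1531 of all 8459 genes were higher and 2121 lower at 4 h. The counts of all genes were 1360 and 1413 at 12 h, and 874 and 1448 at 24 h. Of the 12 list genes with a promoter window, 2 held a TEAD core, beside 14.2% of all windows.

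Several of these targets are also expressed by non-parenchymal cells. The 7 stellate cell and fibroblast markers found summed to between 56.2 and 72.1 RPKM at 0 h, 42.7 and 52.4 RPKM at 4 h, 33.2 and 34.2 RPKM at 12 h, and 58.8 and 63.2 RPKM at 24 h. Their sum at 4 h was highest in BF (52.4 RPKM, of which COL3A1 was 33.05 RPKM), and at 12 h it was lower than at 0 h in every treatment. Single markers differed. At 4 h COL1A1, COL1A2, COL3A1 and PDGFRB were highest in BF, LRAT and RELN in Control, and DES in BA. From 0 h to 12 h PDGFRB rose in every treatment and DES in Control and BF, and the other markers fell. The 3 mesothelial markers found summed to between 2.89 and 19.2 RPKM over all columns and the 3 endothelial markers to between 38.7 and 63.3 RPKM. The part of these cells in the results was not tested.

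Immediate early genes, which many stimuli raise without new protein, were also high at 4 h, when CTGF and AMOTL2 peaked. Of 8 tested, 5 were called higher at 4 h and none lower, with a median of 1.11. Of all genes, 12.9% were called higher and 32.4% lower, with a median of -0.20. JUNB rose by 1.96, KLF6 by 1.71 and FOS by 1.35, named here after their values were seen. DUSP1 of the same list had an estimate of -0.095 and was not called. With rescaled columns 7 of 8 were higher, as were 1531 of all 8459 genes. Of 7 with a promoter window none held a TEAD core, beside 14.2% of all windows that did.

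**Figure D5:**
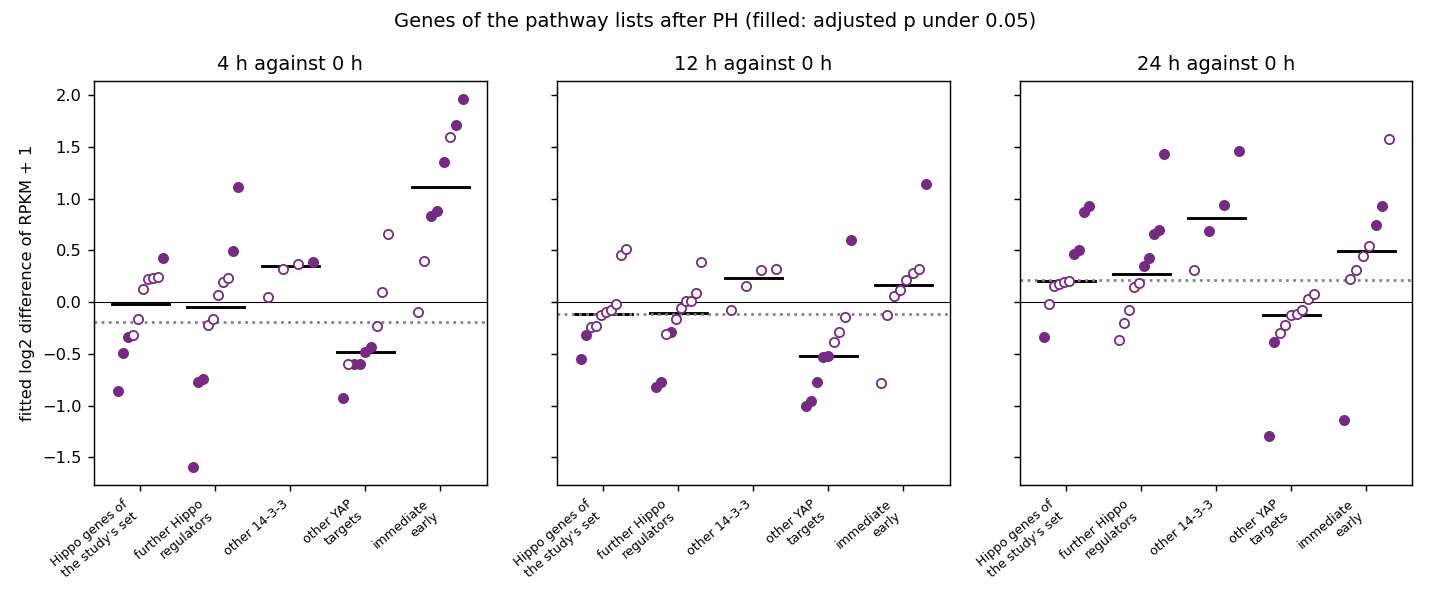
Fitted log2 differences of RPKM + 1 (y axis) at 4, 12 and 24 h against 0 h for the genes of 5 lists (x axis). Each point is 1 gene, filled where the adjusted p in limma is under 0.05, black bars are list medians and dotted lines medians of all genes. At 4 h the other YAP targets have a median of -0.49 and the immediate early genes one of 1.11, and at 24 h the other 14-3-3 genes have one of 0.81.

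The genes with the most similar course over the 12 columns were found by Pearson r on log2(RPKM + 1), as a description, since the columns share treatments and scaling. For CTGF they were GEM (r = 0.965), a small GTPase, MAFF (r = 0.960), a bZIP factor, and FAM108B1 (r = 0.958). GEM stood at 7.86, 9.40 and 3.72 RPKM at 4 h in Control, BA and BF and at 1.46 RPKM or less at every other time. The genes nearest to AMOTL2 were CFLAR, an inhibitor of apoptosis, and KDSR (both r = 0.931), and SGMS1 (r = 0.922). CFLAR had the same order at 4 h, with 54.43 RPKM in Control, 55.07 RPKM in BA and 28.07 RPKM in BF. Between the 2 targets themselves r was 0.759. For CYR61 the nearest genes were SEC24A (r = 0.860), ACTB (r = 0.789), which encodes actin, and SRF (r = 0.774), the factor that binds the CArG box. SRF stood lowest in BF at 0 h (5.44 RPKM) and highest in BF at 4 h (10.94 RPKM), as CYR61 did within BF.

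Among the nearest genes to YAP1 were MAPK3 (r = 0.925) and the proteasome chaperone PSMD9 (r = 0.917), and for YWHAB they were BCKDK (r = 0.912), COG7 (r = 0.905) and SCAMP2 (r = 0.889). YAP1 and YWHAE had an r of 0.723 over the 12 columns, and YAP1 and its target CTGF one of -0.02. When CTGF peaked at 4 h, YAP1 in Control was at 19.55 RPKM after 20.20 RPKM at 0 h.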

How the data were processed

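RNA sequencing of whole rat liver was read from 1 table of RPKM, in which the authors deposited 1 column for each of 3 treatments at 4 times, each the mean of 2 runs. The submitters' processing notes name CASAVA, Bowtie 0.12.2 and the builds rn4 and mm8, and the annotation, the gene counter and the weighting of the runs are not given in the sources used here. RPKM depends on the total of a library, so that a very abundant gene can lower the rest, and the depth of a column is unknown. Columns were assigned by sample title, and the descriptions name BF and BA the other way round.

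Of 14692 genes, 1 had no value and 2303 were at 0 throughout. The 8459 genes whose 12 columns averaged 1 RPKM or more were fitted as log2(RPKM + 1) in limma 3.58.1 (R 4.3.3) with treatment and time as factors, leaving 6 residual degrees of freedom, with Benjamini-Hochberg adjustment over all genes. The fit was tested on simulated columns with independent noise and additive treatment effects. Such columns hold no departures from additivity, so that test bears on the code and not on the calls given here. Single columns were compared by their log2 ratio, called past 2-fold. Alternatives were a pseudocount of 0.1 RPKM, no filter, no mean-variance trend, columns rescaled to a common median gene, only the columns compared, each column left out, and for the medians LATS2 and AMOTL2 with exchanged roles. Python 3.11.15, pandas 2.3.3 and matplotlib 3.10.9 were used.

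Members and lists were chosen with earlier results of these data known. Named genes outside the members are, for each fitted comparison, up to 5 called genes of the pathway, 14-3-3 and target lists with the largest difference, further genes of these lists past 2-fold at 24 h, and the 3 genes nearest in course to CTGF, CYR61, YAP1 and YWHAB. Some genes selected by this rule are not reported here. Likeness to AMOTL2 and the minimum of 0.5 for opposite movements were added after values were seen. AJUBA and the MOB1 genes were found under older symbols. Promoters were taken from RefSeq on GRCr8, a build other than that of the reads.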

Additional observations from a re-analysis of the deposited data

Results flagged for a closer look

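CYR61 was the member whose change after PH went opposite ways in different treatments, by at least 0.5 on the log2 scale each way. At 4 h against 0 h its log2 ratio of RPKM + 1 was 0.59 in Control, 2.19 in BF and -1.40 in BA, so that Control minus BA was 1.99 and BF minus BA 3.59. At 12 h it was -0.92 in Control, 1.76 in BF and -0.96 in BA, and Control minus BF was -2.67 and BF minus BA 2.72. At 24 h it was 0.89 in Control, 1.32 in BF and -0.77 in BA, and Control minus BA was 1.66 and BF minus BA 2.09. These differences were not tested, since each treatment has 1 averaged column at each time. All ratios within a treatment share its 0 h column, where CYR61 was at 6.12 RPKM in Control, 9.09 RPKM in BA and 1.87 RPKM in BF.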

How the results depend on the processing

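Values behind 1 averaged column each have no error between rats, the depth is unknown, and differences in members under about 1 RPKM, such as ANKRD1, were not resolved. No paired analysis by replicate number was possible because each treatment has 1 column at each time. The counts of members called at 4 h and between treatments did not move under any alternative. At 12 h the count of 1 became 2 with columns rescaled to the median gene and 2 with only the columns compared, and at 24 h the count of 2, YWHAE and YAP1, became 1 with rescaled columns, which was LATS2 (-0.48). Leaving out 1 column gave counts of 0 to 2 at 12 h and of 1 to 3 at 24 h, with the count of 2 at 12 h and of 3 at 24 h both without BF at 4 h. The 9 calls past 2-fold against 0 h, summed over times and treatments, became 12 with 0.1 RPKM added and 8 with rescaled columns, and the 10 between treatments became 11 and 9. Rescaling turned the sign of 9 estimates, to 0.10 for LATS2 and 0.070 for YAP1 at 4 h, 0.085 for CYR61 at 12 h, -0.028 for YWHAB, -0.029 for YAP1 and -0.26 for AMOTL2 at 24 h, and, in BA against Control, 0.023 for CTGF, 0.079 for YWHAE and 0.12 for LATS2. YAP1 at 24 h was the called one among them.

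Leaving out 1 column also turned estimates that were not called. At 4 h the range was -0.10 to 0.078 for LATS2, -0.27 to 0.018 for YWHAB, -0.27 to 1.13 for CYR61. At 12 h it was -0.77 to 0.63 for CYR61, and at 24 h -0.15 to 0.18 for AMOTL2, -0.25 to 1.15 for CYR61. In BF against Control it was -0.46 to 0.035 for CTGF, -0.53 to 0.41 for CYR61. In BA against Control it was -0.25 to 0.12 for CTGF, -0.93 to 0.0045 for CYR61, -0.13 to 0.12 for AMOTL2, -0.068 to 0.059 for LATS2, -0.0054 to 0.039 for YAP1. In BF against BA it was -0.37 to 0.14 for CTGF, -0.14 to 0.83 for CYR61, -0.24 to 0.0073 for YWHAB.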
